A study of Mus musculus with 2 samples.

Results

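The neurotrophins and their receptors were described in the hindbrain of mouse embryos at embryonic day 15.5. They were the ligand genes Bdnf, Ntf3 and Ntf5, the Trk receptor genes Ntrk2 and Ntrk3, the p75 receptor gene Ngfr, and Sort1, which encodes sortilin. With earlier results of these data known, the 7 genes were chosen by name, through their Ensembl identifiers, and not by any measured value. They were 7 of 43346 genes in the gene tables, with 26 of 103639 transcripts in the transcript tables. Total RNA was sequenced from 1 group of 2 biological replicates of strain B6NCrl. Each replicate was a pool of hindbrains of both sexes, from 78 embryos for replicate 1 and 62 for replicate 2. Each library was made from 10 ng of RNA in the size range above 200 nt, with spike-in RNAs added. With 1 tissue, 1 stage and no treatment there was no contrast between conditions, so no p-value was computed, and the 2 pools show the spread between preparations. In whole tissue, fewer cells of a type and less RNA per cell cannot be told apart.

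Neurotrophins are secreted growth factors made as longer precursors, which proteases cut to the mature form. BDNF and the product of Ntf5 bind TrkB, encoded by Ntrk2, and neurotrophin-3 binds TrkC, encoded by Ntrk3. Both Trk receptors are tyrosine kinases, and both genes also give truncated forms that bind ligand but lack the kinase. The p75 receptor binds every mature neurotrophin, and together with sortilin it binds the precursors. These signals are known for the survival and growth of sensory, motor and cerebellar neurons.

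The sequences that separate the receptor forms are shown first, because the transcript values below turn on them. In Ntrk2 (chromosome 13, plus strand, GRCm38) the kinase transcript Ntrk2-201 and the truncated transcript Ntrk2-202 share 1393 coding bases, or 464 whole codons. After them Ntrk2-201 continues at chr13:58985802-58985990, whereas Ntrk2-202 reads a coding exon part at chr13:58932023-58932057 and stops 12 codons later. The shared end of the last common exon is in lower case and the first 38 bases after the branch are in capitals. In Ntrk2-202 those 38 bases end with the stop codon.
Ntrk2-201: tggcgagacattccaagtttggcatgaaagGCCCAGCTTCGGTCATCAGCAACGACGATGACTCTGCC
Ntrk2-202: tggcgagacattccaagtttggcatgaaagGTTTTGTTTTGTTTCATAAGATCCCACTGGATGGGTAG

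In Ntrk3 (chromosome 7, minus strand) the kinase transcript Ntrk3-201 and the truncated transcript Ntrk3-202 share 1585 coding bases. Ntrk3-202 then reads 84 codons of its own, from coding exons at chr7:78304292-78304426 and chr7:78302632-78302747. Lower case again marks the shared end, and capitals mark the 38 bases after the branch.
Ntrk3-201: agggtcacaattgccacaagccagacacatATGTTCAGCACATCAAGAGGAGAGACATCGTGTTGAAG
Ntrk3-202: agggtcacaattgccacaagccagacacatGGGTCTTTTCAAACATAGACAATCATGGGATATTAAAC

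The other kinase transcripts of Ntrk3 carry inserts within the kinase part. Ntrk3-205 has an exon of 42 bases, or 14 codons, at chr7:78204103-78204144. Ntrk3-206 has that exon and another of 75 bases, or 25 codons, at chr7:78229487-78229561. The insert is in capitals below and the joined neighbouring exons are in lower case, with the longer exon shown for Ntrk3-206.
Ntrk3-205: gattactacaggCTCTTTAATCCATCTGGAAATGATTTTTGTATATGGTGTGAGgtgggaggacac
Ntrk3-206: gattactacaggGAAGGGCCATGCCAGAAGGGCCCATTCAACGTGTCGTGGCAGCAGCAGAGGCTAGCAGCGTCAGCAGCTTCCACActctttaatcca

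The map of coding exons shows where these parts lie along the joined coding sequence. The models are those of GENCODE M21, whereas the deposited values rest on GENCODE M4. Transcript lengths were equal in both for 16 of the 26 transcripts, among them Ntrk3-205 and Ntrk3-206, and differed for Ntrk2-201, Ntrk2-202, Ntrk3-201 and Ntrk3-202.

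**Figure D1:**
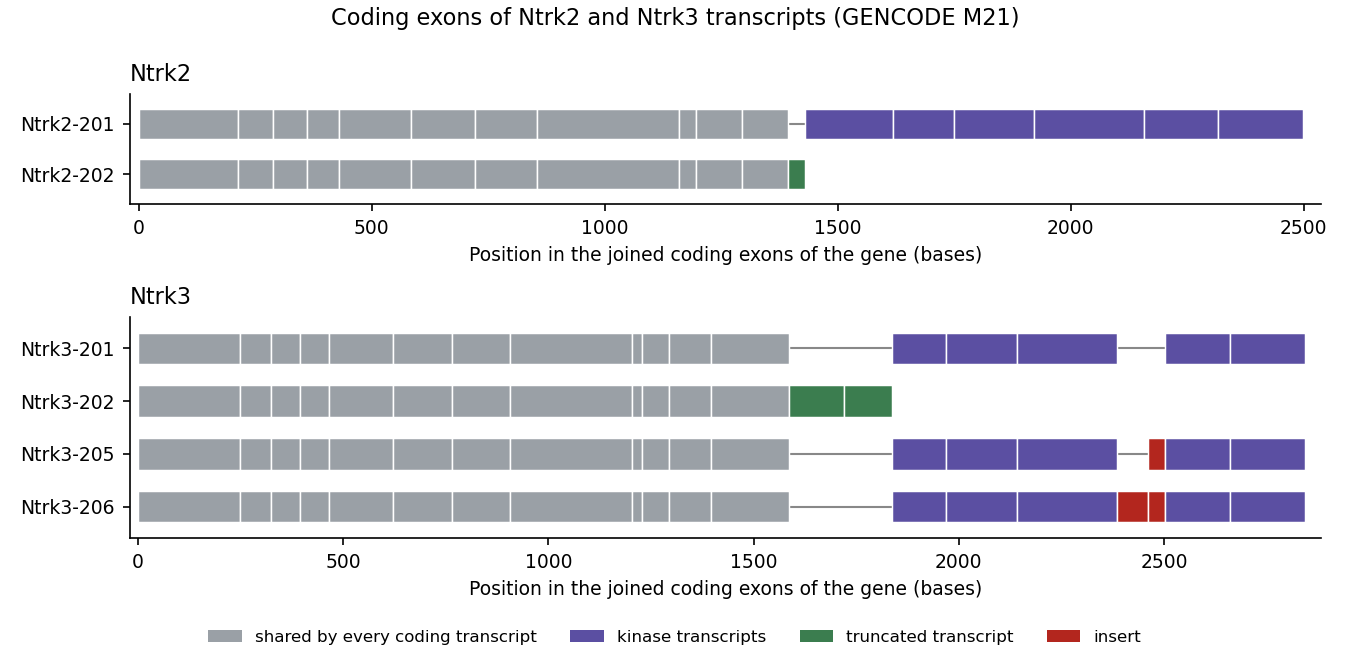
Coding exons of Ntrk2 and Ntrk3 transcripts, laid end to end over all coding exons of each gene (x axis, bases), with 1 row per coding transcript. Grey exons are shared by every coding transcript, purple exons are in the kinase transcripts, green parts belong to the truncated transcript and red exons are the inserts of 42 and 75 bases. In both genes the truncated transcript leaves the shared exons before the kinase part.

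The ligands were expressed at low levels and the receptors several-fold higher. Detection was set at 1 TPM (a relative abundance corrected for transcript length and library size) or more in both libraries. By that rule 6 of the 7 genes were detected, all but Ntf5, and 63.1% of 21461 nuclear protein-coding genes were. Values are given as replicate 1 and replicate 2, then as mean ± SD (n = 2).

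Among the ligands, Bdnf (chr2:109674700-109727007, plus strand) had 4.11 and 4.24 TPM, from 418 and 457 estimated counts. Its mean was 4.18 ± 0.0919 TPM. BDNF is the ligand of TrkB that is known for its induction by neuronal activity. Ntf3 (chr6:126101412-126166910, minus strand) had 2.91 and 2.84 TPM from 96 and 98 counts, with a mean of 2.88 ± 0.0495 TPM. In both libraries Bdnf was above Ntf3, at 1.41 and 1.49 times its TPM, and the deposited TPM intervals of the genes did not overlap in either library.

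Ntf5 (chr7:45413695-45417179, plus strand), the gene of the other TrkB ligand, was listed at 0 counts in replicate 1 and had 5 counts, or 0.10 TPM, in replicate 2. A count of 0 allows up to 0.0622 TPM in replicate 1, by a floor of 3 counts. The 5 counts of replicate 2 have an exact 95% Poisson interval of 1.62 to 11.7 counts, equal to 0.0319 to 0.229 TPM, which covers counting error only. Both bounds lie below the 1 TPM set for detection. With so few counts the libraries were not compared. Together the 3 ligand genes summed to 7.02 and 7.18 TPM.

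Ntrk2 (chr13:58806569-59133970) was the most abundant of the 7 genes in both libraries. It had 44.45 and 49.53 TPM from 8997 and 10591 counts, with a mean of 47.0 ± 3.59 TPM. That level was at the 83.3th percentile of nuclear protein-coding genes. The deposited intervals, which belong to the posterior estimate, were 42.6 to 44.4 TPM in replicate 1 and 47.5 to 49.4 TPM in replicate 2. In both libraries the TPM given above lay just past the upper bound, and the intervals of the libraries did not overlap. Of the 6 genes whose mean count was at least 20, Ntrk2 alone had intervals apart in this way, where 19.0% of 17048 genes had.

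Ntrk3 (chr7:78175959-78738012) had 17.31 and 18.20 TPM from 1075 and 1254 counts, with a mean of 17.8 ± 0.629 TPM. Ntrk2 exceeded it 2.57 times in replicate 1 and 2.72 times in replicate 2. Both receptor genes stood above the genes of their main ligands in both pools. Ntrk2 had 10.8 and 11.7 times the TPM of Bdnf, and Ntrk3 had 5.95 and 6.41 times the TPM of Ntf3.

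Ngfr (chr11:95568818-95587735, minus strand), the gene of p75, had 34.28 and 36.28 TPM from 2969 and 3318 counts, with a mean of 35.3 ± 1.41 TPM. Sort1 (chr3:108284082-108361511, plus strand) had 18.31 and 19.68 TPM from 2534.43 and 2985.44 counts, with a mean of 19.0 ± 0.969 TPM. Sortilin is a sorting receptor that also carries proteins within the cell, so its transcript is not particular to neurotrophin signalling.

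In both libraries the order from the highest level was Ntrk2, Ngfr, Sort1, Ntrk3, Bdnf, Ntf3 and Ntf5. Sort1 and Ntrk3 were the only neighbours in that order whose deposited intervals overlapped, in 2 of 2 libraries. Their means were 1.24 TPM apart, against SDs of 0.969 and 0.629 TPM, so the order of these receptors is not settled by the data.

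**Figure D2:**
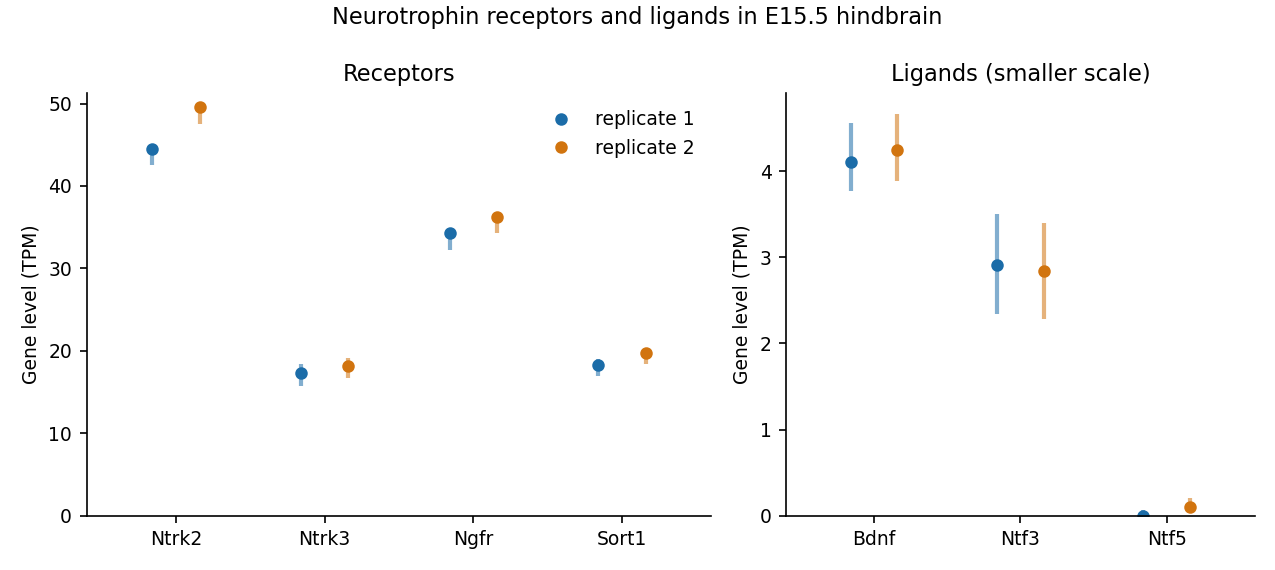
Gene levels in TPM (y axis, linear, with a smaller scale for the ligands) of the receptor genes and ligand genes in replicate 1 (blue) and replicate 2 (orange). Points are the deposited TPM and bars the deposited TPM interval, which belongs to the posterior estimate and need not be centred on the point. For Ntrk2 both points lie just above their bars. Receptor points lie between 17.31 and 49.53 TPM and ligand points between 0 and 4.24 TPM.

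The 2 transcripts of Ntrk2 kept almost the same proportion in both pools. The kinase transcript Ntrk2-201, which encodes 821 codons, had 26.52 and 29.67 TPM. The truncated transcript Ntrk2-202, which encodes 476 codons, had 17.93 and 19.86 TPM. The truncated form therefore held 40.3% of the gene's TPM in replicate 1 and 40.1% in replicate 2, a mean of 40.2% ± 0.170 (SD, n = 2). As a share of estimated counts, which are not corrected for length, it was 35.6% and 35.4%. In M21, 5109 bases of Ntrk2-202 and 7007 bases of Ntrk2-201 are in no other quantified Ntrk2 transcript, so reads can separate the forms over long stretches, most of them outside the coding part.

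Ntrk3 had 6 transcripts in the tables, of which 3 code for the kinase, 1 for the truncated form and 2 have no coding sequence. The kinase transcripts summed to 11.40 and 14.35 TPM. The truncated Ntrk3-202, of 612 codons, had 3.61 and 2.41 TPM. It held 24.1% of the TPM of the coding transcripts in replicate 1 and 14.4% in replicate 2, a mean of 19.2% ± 6.84 (SD, n = 2).

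The spread between pools was thus wide for the truncated share of Ntrk3 and narrow for that of Ntrk2. Counts of Ntrk3-202 had a log2 ratio of replicate 2 over replicate 1 of -0.62, with an exact 95% interval of -0.93 to -0.31 for counting error only. The deposited TPM intervals, which also take in how reads are assigned between transcripts, were 2.62 to 4.42 and 1.66 to 3.23 TPM and overlapped. In both pools the truncated share of Ntrk2 was above that of Ntrk3. Truncated Ntrk2 had 4.97 and 8.24 times the TPM of truncated Ntrk3, and kinase Ntrk2 had 2.33 and 2.07 times the TPM of kinase Ntrk3.

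Most of the kinase RNA of Ntrk3 was assigned to the transcripts with an insert shown above. Ntrk3-205, with the 42-base insert and 839 codons, had the highest value in both libraries, at 6.80 and 9.21 TPM, or 39.3% and 50.6% of the gene. Ntrk3-201, with no insert and 825 codons, had 3.43 and 3.45 TPM, and Ntrk3-206, with both inserts and 864 codons, had 1.17 and 1.69 TPM. Ntrk3-205 and Ntrk3-206 together held 69.9% and 76.0% of the kinase TPM, a mean of 72.9% ± 4.28 (SD, n = 2). By estimated counts that mean was lower, at 68.6%. Ntrk3-206, which enters the share, had deposited intervals of 0.0134 to 3.31 and 0.444 to 3.87 TPM. The quantified model of Ntrk3-201 was 3300 nt, against 19703 nt in M21, and those of Ntrk3-205 and Ntrk3-206 were 2678 and 2774 nt. How far the insert share depends on these models was not tested. The deposited intervals of Ntrk3-205 were wide, at 3.99 to 7.77 and 6.50 to 10.5 TPM. In replicate 1 they overlapped those of Ntrk3-201 (2.59 to 4.21 TPM) and Ntrk3-202 (2.62 to 4.42 TPM), so its lead was not settled there. Its M21 model has 0 bases that no other quantified Ntrk3 transcript holds. TrkC forms with such kinase inserts are known to signal less fully than the form without one.

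The remaining Ntrk3 transcripts were Ntrk3-203, a processed transcript at 2.28 and 1.41 TPM, and Ntrk3-204, a retained intron at 0.03 TPM in both libraries. Gm9885, an antisense gene that overlaps Ntrk3, had 2.75 and 2.92 TPM, and whether counting used strand is not given in the sources used here. Reads of Ntrk3 and Gm9885 cannot be told apart where they overlap if it did not.

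**Figure D3:**
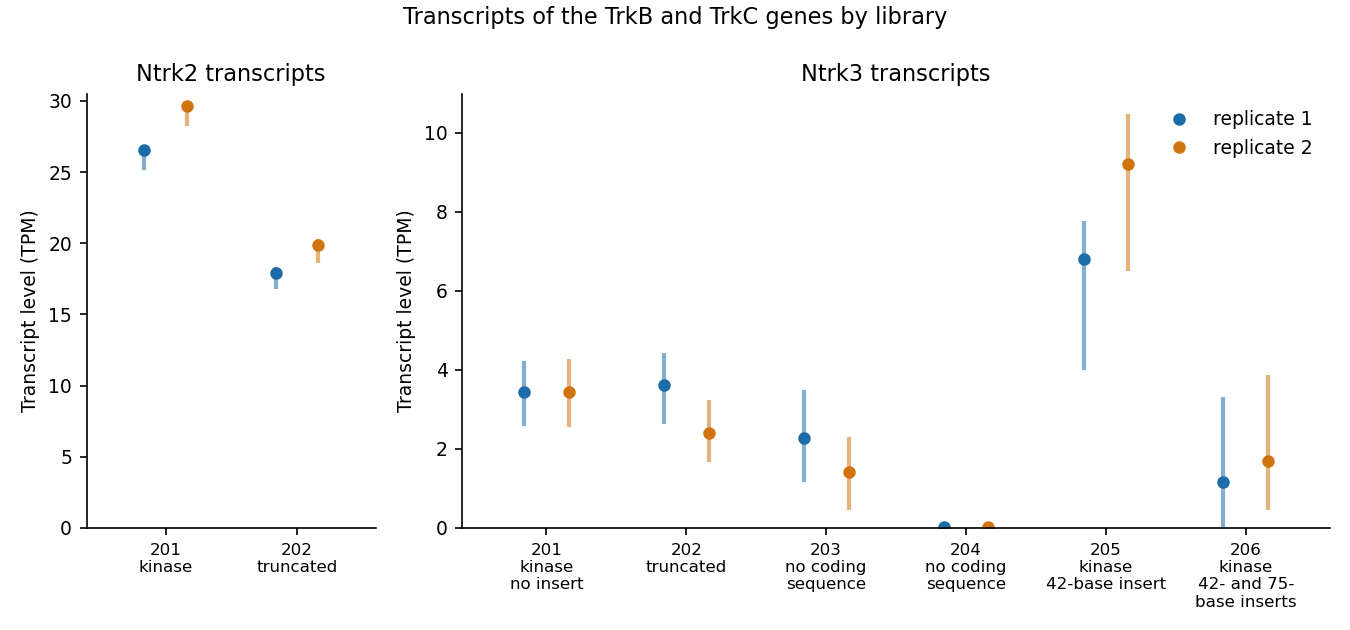
Transcript levels in TPM (y axis, linear from 0, separate scale per gene) of the 2 Ntrk2 and 6 Ntrk3 transcripts in replicate 1 (blue) and replicate 2 (orange), with deposited TPM intervals as bars. Ntrk2-201 and Ntrk2-202 are both higher in replicate 2, whereas truncated Ntrk3-202 is lower there, at 2.41 against 3.61 TPM, with overlapping bars.

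Bdnf had 11 transcripts in the tables, which start at 9 places, all end at chr2:109727007, and had equal lengths in M4 and M21. The first exon thus separates most of them. Bdnf-205, which starts at chr2 position 109693563, led in both libraries with 1.71 and 1.39 TPM, or 41.6% and 32.7% of the gene. Bdnf-209, starting at 109692436, followed with 1.26 and 1.22 TPM, or 30.7% and 28.7%. Bdnf-201, starting at 109674700 and coding for 257 codons where most others code for 249, had 0.54 and 0.77 TPM, or 13.1% and 18.1%.

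The start at 109675897 is shared by Bdnf-207, Bdnf-208 and Bdnf-210, which held 12.4% and 20.5% together. Within it Bdnf-210 had 0.51 TPM in replicate 1, where the other two were listed at 0. Bdnf-206 was listed at 0.09 TPM in replicate 1 and at 0 in replicate 2, and Bdnf-202, Bdnf-203, Bdnf-204 and Bdnf-211 were listed at 0 in both. For each of the 11 transcripts the deposited intervals of the libraries overlapped. With 418 and 457 counts for the whole gene, an order between the first exons of Bdnf-205 and Bdnf-209 was not detectable at this depth, since their intervals overlapped in both libraries. The intervals of Bdnf-201 and Bdnf-210 also overlapped those of Bdnf-209 in both libraries and those of Bdnf-205 in replicate 2.

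**Figure D4:**
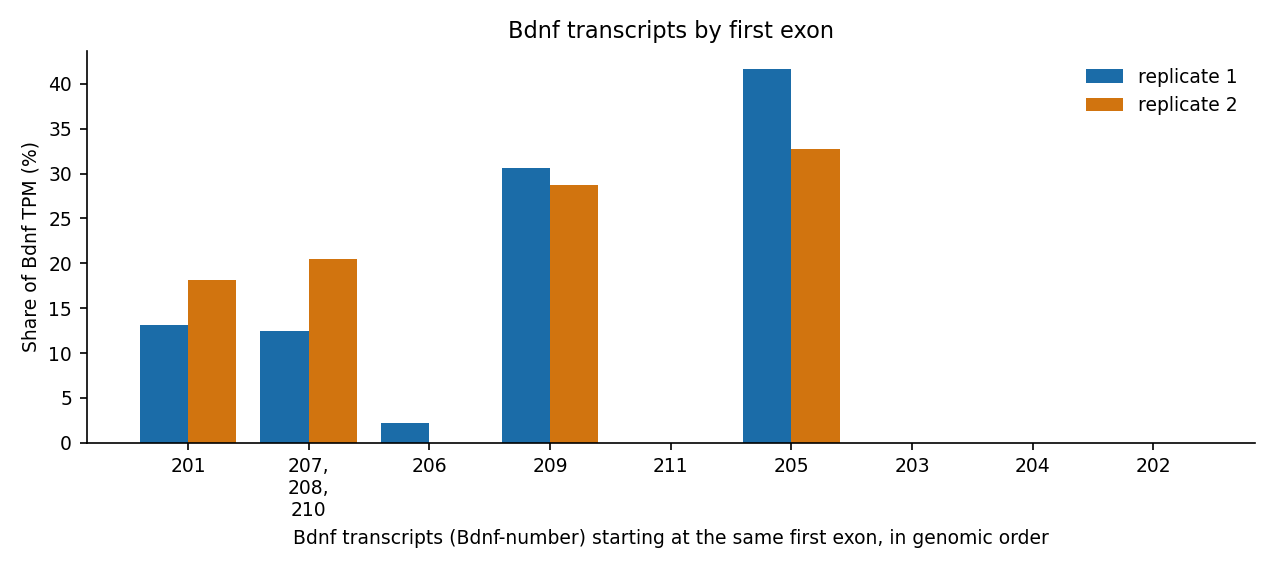
Share of Bdnf TPM in percent (y axis, from 0) held by the transcripts of each first exon, in genomic order (x axis), in replicate 1 (blue) and replicate 2 (orange). The first exons of Bdnf-205 and Bdnf-209 hold the largest shares in both libraries, at 32.7% to 41.6% and 28.7% to 30.7%, and 4 first exons are at 0 in both.

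Of these 9 starts, 6 have a window in the RefSeq table of start regions (GRCm38.p6), and Bdnf-205 is not among them. The 250 bases before the start of Bdnf-209, at chr2:109692186-109692435 on the plus strand, are printed because this first exon is known for activity-dependent transcription through CREB, a factor that binds the cyclic AMP response element. The capitals mark the match to the core of that element, TGACG, searched on both strands.
Bdnf-209: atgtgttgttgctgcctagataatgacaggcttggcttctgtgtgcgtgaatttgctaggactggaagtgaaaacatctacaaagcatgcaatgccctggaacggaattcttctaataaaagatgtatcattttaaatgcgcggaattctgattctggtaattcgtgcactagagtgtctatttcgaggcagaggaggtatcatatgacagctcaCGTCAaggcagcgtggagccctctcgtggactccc

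The core stood in this window alone among the 7 Bdnf windows, and in 17.7% of the 32817 windows of the same length over all genes. The full element, TGACGTCA, which contains the core, was in 0 of the 7 and in 1.55% of all windows. The letters TATAAA of a TATA box were in 0 of the 7 and in 12.4% of all. A match here is a description of letters and not of binding.

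Ntf3 had 2 coding transcripts at nearly equal levels. Ntf3-201, of 258 codons, had 1.41 and 1.61 TPM, and Ntf3-202, of 271 codons, had 1.5 and 1.22 TPM. The leader therefore differed between the libraries, but with 96 and 98 counts for the gene and overlapping intervals, from 0.514 to 2.29 TPM for Ntf3-201 and 0.688 to 2.32 TPM for Ntf3-202 in replicate 1, no order was detectable. Ngfr and Ntf5 had 1 transcript each.

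Sort1 had 3 transcripts, led by Sort1-201 with 13.74 and 15.49 TPM, or 75.04% and 78.7% of the gene. Sort1-203 had 3.07 and 2.90 TPM, and its M21 model holds a coding exon of 99 bases, or 33 codons, at chr3:108355472-108355570 that Sort1-201 lacks. Sort1-202, a retained intron, had 1.5 and 1.28 TPM. By estimated counts Sort1-201 held 93.9% and 95.0% of the gene, because the models of the other transcripts in the files are short, at 1629 nt for Sort1-203 and 925 nt for Sort1-202 against 6796 nt. The M21 models of Sort1-203 and Sort1-202 are longer, at 6836 and 5193 nt, so it was not tested whether the quantified Sort1-203 held the 99-base exon.

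Among 8395 genes at 5 TPM or more with several transcripts, the leading transcript differed between the libraries in 6.38%. Of the 3 members in that set, Ntrk2, Ntrk3 and Sort1, it differed in 0. At the level of transcripts, 2 of the 17 with a mean count of 20 or more were past a 1.5-fold ratio between the pools, Ntrk3-202 and Ntrk3-203, where 20.5% of all 39656 such transcripts were.

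Between the pools the gene levels differed little. After scaling of the counts, 0 of the 6 genes compared were past 1.5-fold, at a mean count of 20 or more, where 6.48% of 17048 genes were. The ratios had a median of 0.08 on the log2 scale and ran from -0.08 for Ntf3 to 0.13 for Sort1, beside a median of 0.00 and an SD of 0.40 over all genes compared. Ntrk2 had a log2 ratio of 0.13, with an exact 95% interval of 0.08 to 0.17, and Sort1 one of 0.13, from 0.05 to 0.20. These 2 of 6 intervals lay above 0, where 38.0% of all genes compared had intervals on either side of it that left it out, and those of Ntrk3 (-0.01 to 0.23), Ngfr (-0.02 to 0.12), Bdnf (-0.18 to 0.21) and Ntf3 (-0.50 to 0.34) included it.

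Apart from Ntf3, the ratios were small beside the spread of genes whose mean count was at least 100, with an SD of 0.25. Ntf3 had a mean count of 97, below that minimum. Its ratio of -0.08 stands beside the SD of 0.40 over all genes compared. The intervals cover counting error only, and over all genes the libraries differed beyond it (chi-square over degrees of freedom, 12.4). Scaling to spike-in totals moved every log2 ratio down by 0.11. That put Ntf3 at -0.19, Bdnf at -0.10, Ngfr at -0.06 and Ntrk3 at -0.0015, and left Ntrk2 and Sort1 at 0.01.

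Sensory ganglia lie beside the hindbrain, and most of their markers were lower in replicate 2. Of 9 such genes 6 were detected, beside 63.1% of 21461 nuclear protein-coding genes. All 9 together summed to 158.99 and 102.61 TPM. The highest in that sum were Prph, at 69.76 and 44.62 TPM, and Pou4f1, at 47.27 and 34.34 TPM. Which cells made them was not tested, so the sum is not a measure of ganglion RNA. Of 8 compared, 6 were past 1.5-fold, all higher in replicate 1, where 6.48% of 17048 genes were past it in either direction. The median log2 ratio of the 8 was -0.76. Avil had 9.24 and 3.41 TPM, P2rx3 11.34 and 5.91 TPM, and Runx3, a marker of TrkC-positive ganglion neurons, 0.03 and 0.04 TPM. Ntrk2, Ntrk3 and Ngfr are also made in such ganglia. At gene level their TPM was higher in replicate 2, and with spike-in totals their log2 ratios were 0.01, -0.0015 and -0.06. Truncated Ntrk3-202 was lower in replicate 2. The part of ganglion tissue in the levels of these genes and in that difference was not tested.

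**Figure D5:**
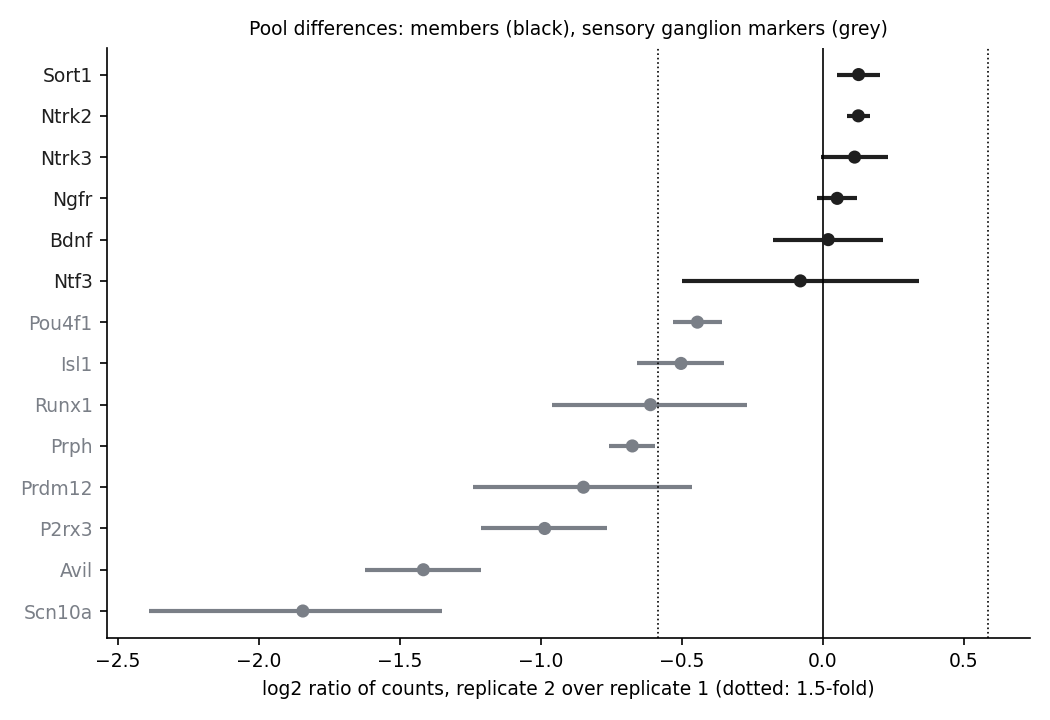
Log2 ratio of scaled counts, replicate 2 over replicate 1 (x axis), for the 6 members compared (black) and the 8 sensory ganglion markers compared (grey), with exact 95% intervals of counting error as bars and dotted lines at 1.5-fold. The members lie between -0.08 and 0.13, whereas the markers have a median of -0.76.

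Other marker lists, as far as they bear on where the members are made, were as follows. Position genes of the hindbrain were detected in 7 of 8 cases and forebrain genes in 1 of 5, Lhx2, at 50.71 and 9.96 TPM. Neuronal and radial glial or astrocyte markers were detected in 6 of 6 and 7 of 7 cases and summed to 2258 and 2352 TPM and to 2162 and 2249 TPM. Schwann and satellite cell markers summed to 31.6 and 25.5 TPM, meningeal ones to 1332 and 968 TPM, endothelial and pericyte ones to 280 and 271 TPM, and choroid plexus ones to 934 and 1259 TPM. Of the last, Ttr alone had 868 and 1183 TPM, whereas Otx2 was lower in replicate 2, at 28.1 and 17.2 TPM. Truncated TrkB is known from astrocytes and p75 from Schwann and meningeal cells, and the part of these cells in the levels was not tested. The libraries held 40020322 and 43263959 estimated counts in genes.

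Most genes of the pathway around these members were also detected. Of 122 listed genes 108 were at 1 TPM or more in both libraries, beside 63.1% of 21461 nuclear protein-coding genes. Of 113 compared, 2 were past 1.5-fold with the higher value in replicate 2, Pcsk6 and Npas4, and 2 with the higher value in replicate 1, among them Gfra3. Over all genes compared, 6.48% of 17048 were past that ratio in either direction. Pcsk6, Npas4 and Gfra3 are named because they passed, after their values were seen.

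Genes that process the precursors or limit that step were detected in 10 of 16 cases. Cpe, a carboxypeptidase that also sorts BDNF precursor into secretory granules, had 564.80 and 580.82 TPM. Serpini1, which encodes neuroserpin, an inhibitor of tissue plasminogen activator, had 117.61 and 124.56 TPM, and Plat, the gene of that activator, had 91.14 and 93.21 TPM. Plasmin, which Plat helps to form, cuts BDNF precursor, and its own gene Plg was listed at 0 and 0.10 TPM. The convertase gene Furin had 5.14 and 4.81 TPM, and Pcsk6, the highest of those not detected, 0.84 and 1.46 TPM.

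Partners of p75 and sortilin were detected in 22 of 22 cases. Maged1 and Bex3, whose products bind the intracellular part of p75, had 738 and 777 TPM and 617 and 602 TPM. Arhgdia, whose product p75 is known to bind, had 394 and 431 TPM. Adaptors and kinases downstream of Trk were detected in 39 of 39 cases, led by Map2k2 at 198 and 209 TPM, with Hras at 149 and 147 TPM. Genes for the transport of Trk in endosomes were detected in 14 of 14 cases, led by the dynein light chain gene Dynll1 at 1048 and 1007 TPM, then Rab11b at 471 and 480 TPM and Rab11a at 312 and 315 TPM.

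Genes listed for the response to neurotrophins passed that minimum in 13 of 15 cases, and their median level was 4.77 and 5.19 TPM. Not every gene of the list is itself known to be induced. Arc, Egr1 and Fos, named after their values were seen, were below that median. They had 3.16 and 3.53, 2.87 and 3.15, and 2.04 and 3.24 TPM. The highest was Spry2, a feedback inhibitor of receptor kinases, at 28.43 and 28.47 TPM. Creb1, the gene of CREB, had 25.7 and 22.6 TPM, and Dusp6, a phosphatase of MAP kinases, 19.8 and 22.2 TPM. Plaur, at 0.98 and 1.24 TPM, was the highest not detected. Of 15 genes of other trophic factors and their receptors 10 were detected, led by Gfra4 at 36.1 and 42.7 TPM, Gfra1 at 31.4 and 32.2 TPM and Cntfr at 23.3 and 26.7 TPM. Cntf, the gene of a ligand of the Cntfr product, was the highest not detected, at 0.79 and 0.94 TPM.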

How the data were processed

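Total RNA-seq of 2 pools of E15.5 hindbrain, 1 library each, was taken from the deposited gene and transcript tables. The notes deposited with them name mm10 and GENCODE M4 and 1 library per table. Columns are named as in RSEM output. Neither the alignment and quantification software nor the strand setting is given in the sources used here. The deposited estimated counts are not normalized. The deposited TPM values are scaled over all features, spike-ins included. The deposited FPKM values gave an alternative minimum for detection. The deposited TPM bounds and posterior values, a signal per the file headers, gave intervals (their level is not stated in the sources used here) and alternatives. The deposited percent of a gene held by a transcript was an alternative, as shares were computed from TPM.

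Beside 43346 genes stood 97 spike-ins, with 2.86% and 3.09% of all counts, and 26248 numeric identifiers. Both stayed out of library sizes. Symbols, positions and transcript models came from GENCODE M21 (GRCm38) by identifier without version, for 42462 genes, and coding sequences from its transcripts. Ratios used TMM from edgeR 4.0.16 under R 4.3.3, a prior count of 0.5, a mean count of at least 20, and exact Clopper-Pearson 95% intervals (scipy 1.17.1). A floor of 3 counts served for 0. A transcript was called truncated if its coding sequence ended before the kinase exons. The ratio was tested on simulated data. Nothing says how the pools were divided among litters, so the spread is between these pools.

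Members and lists were chosen with earlier results of these data known. Named were all 7 genes, transcripts with 5% or more of their gene in either library, every Ntrk2 and Ntrk3 transcript, and in each pathway list the 3 highest genes and the highest not detected. A few genes named by it are left out here. Alternatives were TPM minimums of 0.5 and 2, 1 FPKM, posterior means, rescaled TPM, other scalings with DESeq2 1.42.0 among them, other count minimums, and each library alone. Estimated counts for the insert share and for transcript shares were added after the data were seen.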

Additional observations from a re-analysis of the deposited data

How the results depend on the processing

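With each of the 7 alternatives tried for it, 6 members were detected. Between 104 and 112 of the 122 pathway genes were detected over theirs, and 108 to 110 with each library alone. No member was past 1.5-fold under 6 of the 7 alternatives, and without a count minimum 1 was, Ntf5, with 0 and 5 counts. With estimated counts instead of TPM, the truncated share of Ntrk2 was 35.5% in place of 40.2%, the insert share of Ntrk3 kinase transcripts 68.6% in place of 72.9%, and the share of Sort1-201 94.5% in place of 76.9%, since counts are not corrected for length. Each library alone gave a truncated share of 40.1% to 40.3% for Ntrk2 and 14.4% to 24.1% for Ntrk3, and an insert share of 69.9% to 76.0%. With TPM rescaled over nuclear protein-coding genes, Ntrk2 had 59.8 TPM and Bdnf 5.31 TPM. That rescaling moved the 6 detected genes beyond their SD. Spike-in totals put the ratios of Ntrk2, Ngfr and Sort1 outside their counting intervals, at 0.01, -0.06 and 0.01. That scaling changed the sign for Bdnf, Ngfr and Ntrk3. For Ntrk3, it gave a ratio of -0.0015. A level or share from 1 of 2 libraries always lies within 1 SD of their mean, so each library alone is no check of stability. No paired analysis was possible because there is 1 group.

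The limits are those of 2 pools. Transcript levels rest on GENCODE M4 models that differ in length from those of M21 for 10 of 26 transcripts, and Ntrk3-205 differs from Ntrk3-201 in its coding sequence by 42 bases alone. Depth limits the transcripts of Bdnf and Ntf3, and the ratio of Ntf5 was not compared at 0 and 5 counts.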
